A study of Mus musculus with 11 samples.

Results

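The NADPH oxidase subunits examined here are the products of 9 genes, Cyba, Cybb, Ncf1, Ncf4, Nox1, Nox4, Noxo1, Rac1 and Rac2. They were picked by gene name among the probes of the array, and all probes of each gene were kept, which gave 13 of the 55681 probes other than control spots and 9 of the 36413 names that the array gives its probes, genomic intervals and transcript identifiers included. RNA of the aorta was measured in male C57BL/6 mice aged 20 months. Nitrate treated mice (n = 5) drank water with 1 g/L NaNO3 over 8 weeks. The untreated comparison group (n = 6) is labelled control, and its arrays are described as a re-analysis of earlier samples. The study's methods name NaCl for the controls, which the labels do not. Both groups were old wild-type males on standard chow, each array held the RNA of a separate mouse, and no young mice were analysed here.

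NADPH oxidases are membrane enzymes that pass electrons from NADPH to oxygen and so make superoxide or hydrogen peroxide. A catalytic subunit (Nox1, Nox4, or NOX2, which is encoded by Cybb) sits in the membrane with p22phox, encoded by Cyba. The Nox1 and NOX2 enzymes also need cytosolic organizers and activators and a Rac GTPase, whereas the Nox4 enzyme is active without them. In the vessel wall, Nox1 and Nox4 are known from smooth muscle, Nox4 also from endothelium and fibroblasts, and the NOX2 complex from phagocytes and endothelium.

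The array reads a transcript through probes of 60 bases, and 4 genes had 2 probes each. The 4 probes of Nox4 and Nox1 are shown, since for both genes 1 or both probes missed the detection rule, written 5′ to 3′ in lower case with no part singled out by capitals. For Nox4, the probe A_55_P1972040 lies at chr7:94547025-94547084 (mm9), at base 3411 of the transcript, and is shown by its first 30 bases. The Nox4 probe A_51_P369311 lies at base 1077 of the transcript, and its genomic interval, chr7:94472458-94487478, is 15021 bases long, so that this probe crosses at least 1 intron. The Nox1 probes A_51_P364714 and A_55_P1997906 lie at chrX:130627582-130627641 and chrX:130621740-130621799.
Nox4 A_55_P1972040: ccttgcctaatctaaactccagtgcatgtt
Nox4 A_51_P369311: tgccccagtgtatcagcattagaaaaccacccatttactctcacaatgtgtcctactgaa
Nox1 A_51_P364714: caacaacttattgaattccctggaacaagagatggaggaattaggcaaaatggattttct
Nox1 A_55_P1997906: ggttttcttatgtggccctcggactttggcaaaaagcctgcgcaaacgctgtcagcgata

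Detection required a found spot with a signal well over background, on 5 or more arrays of one of the groups. This held for 23630 probes of the array and for 10 of the 13 subunit probes, which cover every subunit except Nox1. Values are log2 signals after quantile normalization, so 1 unit is a doubling of fluorescence, and levels were compared only between arrays for the same probe. In the array data as a whole, the 75th percentile of the signal before normalization lay between 213 and 289, and between 24761 and 28665 probes per array were both found and well above background. At most 186 of 59305 spots per array were flagged as outliers and 0 were saturated. Smooth muscle transcripts were bright on all arrays (Acta2 17.76 to 18.06), and the endothelial Pecam1 and Cdh5 were detected. The array of control 1 stood apart: it had the highest mean of the neutrophil markers (1.40 against 0.33 or lower elsewhere, log2 units relative to the mean over all arrays) and the lowest mean of the smooth muscle markers (-0.36 against -0.06 or higher). The neutrophil mean covers 3 detected genes. Of these S100a8 and S100a9 varied among controls (SD 0.85 and 0.99), while Elane varied little (SD 0.14). Every array of the control group lay in slide column 3 and no array of the nitrate group did, so slide column and treatment cannot be told apart.

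Differences between the groups were small for most subunits. 6 of the 10 detected probes had a higher mean in the nitrate group and 4 a lower mean, and over all detected probes 53.8% had a higher mean. At an unadjusted limma P value under 0.05 with a fold change above 1.2, the rule of the study's methods, 1 of the 10 subunit probes was called, the Nox4 probe A_55_P1972040. Over the array 2127 of 23630 probes were called, or 9.00%, with 4.16% called as higher in nitrate treated mice and 4.85% as lower. A share of 1 in 10 is close to this background. After Benjamini-Hochberg adjustment over all detected probes 0 subunit probes had an adjusted P under 0.05 by limma, and 0.0127% of the array did. For 0 of the 10 probes did the nitrate and control arrays separate without overlap, against 2.75% of the array.

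**Figure D1:**
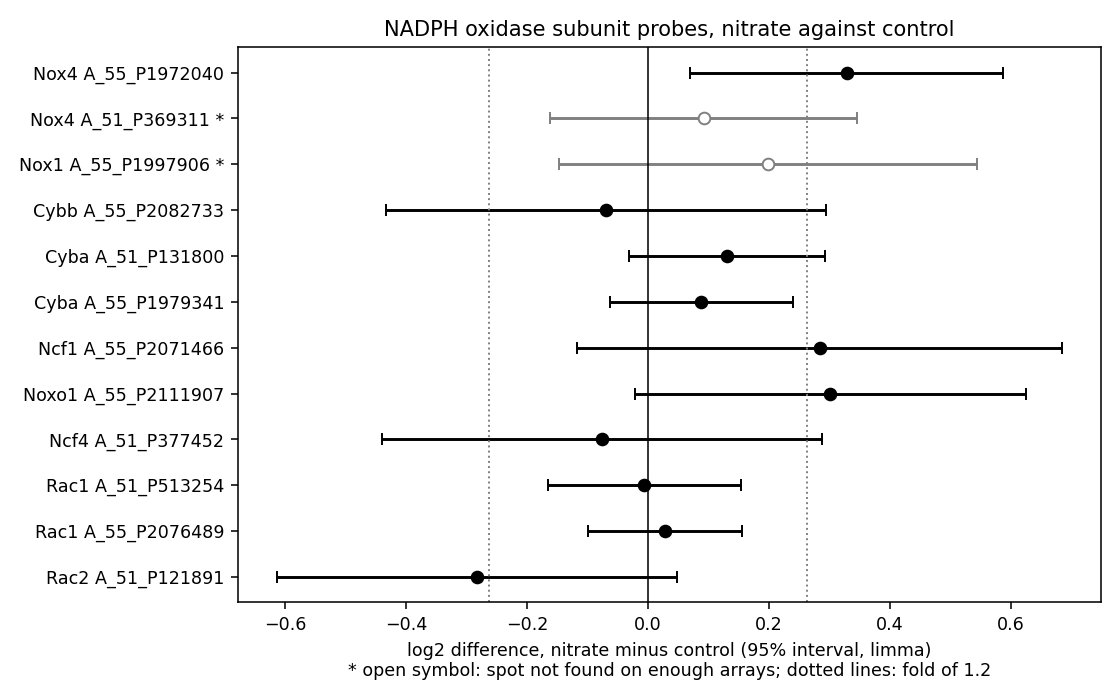
Log2 difference in mean signal, nitrate (n = 5) minus control (n = 6), for 12 subunit probes, with the 95% interval from limma as a line. Only the Nox4 probe A_55_P1972040 at the top has an interval that leaves out 0 (0.07 to 0.59). Open symbols mark the probes outside the detection rule, dotted lines a fold of 1.2. The Nox1 probe that was not above background is left out.

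Nox4, the constitutively active oxidase that releases mainly hydrogen peroxide, gave the one called difference. On the probe A_55_P1972040 the 5 nitrate arrays had log2 signals of 13.28, 13.35, 13.23, 13.47 and 13.50. The 6 control arrays had 12.54, 13.10, 13.12, 13.02, 13.29 and 13.15. All 5 nitrate values were above the control median, 3 were above the highest control, and control 1 was the lowest of all arrays. The control mean was 13.04 ± 0.26 (SD, n = 6) and the nitrate mean 13.37 ± 0.11 (SD, n = 5), so the signal rose by 0.33 log2 units (SE 0.12), a fold of 1.26. The limma P was 0.0173 and the adjusted P was 0.275. In a two-sided exact permutation test over all 462 divisions of the mice P was 0.0108.

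The size of the Nox4 difference rested in part on control 1. Without that array the control mean was 13.14 ± 0.10 (SD, n = 5) and the difference was 0.23 (SE 0.07), a fold of 1.17, which is under the fold limit of 1.2. The limma P was then 0.0106 and the adjusted P 0.275. The exact permutation P over 252 divisions was 0.0238. All 3 slides held arrays of both groups, and the nitrate mean was the higher on each of them, by 0.49 on slide 1 (2 nitrate and 2 control arrays), 0.15 on slide 2 (1 and 2) and 0.28 on slide 3 (2 and 2).

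The second Nox4 probe, A_51_P369311, exceeded background on each of the 11 arrays, but its spot was found on 3 of 5 nitrate and 4 of 6 control arrays, outside the detection rule. Its log2 signals were 9.16, 8.93, 8.77, 8.84 and 8.67 in nitrate treated mice and 8.61, 8.86, 8.49, 8.80, 8.89 and 9.04 in controls, and the groups overlapped widely. The difference was 0.09 (95% interval -0.16 to 0.35), with a limma P of 0.440 in a fit over all probes and an exact permutation P of 0.446. It moved with single arrays, to 0.02 without nitrate 1, 0.03 without control 3, 0.06 without control 1 and 0.14 without nitrate 5 or control 6. Between nitrate and control arrays the log2 ratio of the bright to the dim Nox4 probe differed by 0.24, with an exact permutation P of 0.152, so a difference in response between the probes was not shown. Within groups the 2 Nox4 probes were weakly correlated across the 11 arrays (r = 0.22). The rise of Nox4 thus holds for the probe nearer the transcript's 3′ end, and the probe across the intron gave an interval that includes both 0 and 0.33.

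Nox1, the inducible catalytic subunit of smooth muscle, was at the limit of the measurement. The probe A_51_P364714 was not well above background on any array, and no fold is given for it. The spots of A_55_P1997906 exceeded background on each of the 11 arrays, yet were found on 3 of 5 and 4 of 6 arrays only. Signals ran from 5.04 to 5.80 with nitrate and from 5.0 to 5.71 in controls, with a difference of 0.20 (95% interval -0.15 to 0.54), a limma P of 0.231 in the fit over all probes and an exact permutation P of 0.229. It came to 0.11 without nitrate 3 and 0.30 without nitrate 5. A fold of 1.2 in either direction has a log2 size of 0.263, so for Nox1 a rise of that size lies inside the interval.

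Cybb, which encodes the phagocyte catalytic subunit, was dim and detected, its spot being found on 4 of 5 nitrate and 5 of 6 control arrays (A_55_P2082733, chrX:9013216-9013275, mm9). Its log2 signals were 4.86, 5.36, 5.35, 4.67 and 4.66 in nitrate treated mice. They were 5.45, 5.17, 5.08, 5.01, 4.68 and 4.90 in controls. The nitrate arrays fell into a high pair (mice 2 and 3) and 3 lower values, and both groups covered nearly the same range. The difference was -0.07 (95% interval -0.43 to 0.29, limma P = 0.685, exact permutation P = 0.714).

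Cyba encodes p22phox, the membrane partner that stabilises Nox1, NOX2 and Nox4. Its bright probe A_55_P1979341 (chr8:124948726-124948785) averaged 12.65 ± 0.10 (SD, n = 5) with nitrate and 12.56 ± 0.09 (SD, n = 6) without, which differ by 0.09 (95% interval -0.06 to 0.24, limma P = 0.224, exact permutation P = 0.167). Without control 1 the difference on this probe was 0.06 (limma P = 0.383, exact permutation P = 0.317). The other Cyba probe, A_51_P131800, whose interval chr8:124950893-124951161 of 269 bases also crosses an intron, gave 9.92 ± 0.12 and 9.79 ± 0.10, a difference of 0.13 (95% interval -0.03 to 0.29, limma P = 0.105, exact permutation P = 0.0823). Both Cyba probes had 4 of 5 nitrate values above the control median, and neither difference passed the test. Within groups the pair of probes was weakly correlated across arrays (r = 0.26).

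Among the cytosolic organizers, Noxo1, which holds the Nox1 complex together, lay at 8.13, 8.15, 8.31, 8.18 and 8.67 with nitrate. The controls lay at 7.43, 8.22, 8.16, 8.08, 8.14 and 7.87. Apart from nitrate mouse 5 at the top and control 1 at the bottom, the values of both groups lay between 7.87 and 8.31. The difference of 0.30 (95% interval -0.02 to 0.63) had a limma P of 0.0649, an adjusted P of 0.380 and an exact permutation P of 0.0887. Without control 1 it was 0.19 (limma P = 0.115, exact permutation P = 0.143). On the 3 slides it was 0.31, 0.33 and 0.28.

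Ncf1, which encodes p47phox, the organizer of the NOX2 complex, varied more between mice. The nitrate arrays had 5.41, 6.04, 6.35, 6.40 and 5.88, and the control arrays 5.70, 5.39, 5.94, 6.14, 5.68 and 5.54. The lowest values of the groups were alike, and 2 nitrate values exceeded the highest control. The difference was 0.28 (95% interval -0.12 to 0.68, limma P = 0.148, exact permutation P = 0.193). Ncf4, which encodes p40phox, a phosphoinositide-binding partner in the same complex, gave -0.08 (95% interval -0.44 to 0.29, limma P = 0.658, exact permutation P = 0.677), with 7.52 to 8.36 in nitrate treated mice and 7.67 to 8.30 in controls.

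The Rac GTPases switch the Nox1 and NOX2 enzymes on. Rac1, the ubiquitous form, was close to equal in the groups on both probes, with differences of -0.01 (A_51_P513254, 95% interval -0.17 to 0.15) and 0.03 (A_55_P2076489, 95% interval -0.10 to 0.16). Both intervals leave out a fold of 1.2 in either direction. Rac2, the form of blood cells, is printed on the array as 10 spots of 1 probe, which were averaged. It had log2 signals of 6.83, 7.34, 7.36, 7.13 and 6.95 with nitrate and 7.74, 7.44, 7.75, 7.37, 7.07 and 7.08 in controls. 0 of 5 nitrate values lay above the control median, while 2 control arrays were as low as the nitrate arrays. The difference was -0.28 (95% interval -0.61 to 0.05), with a limma P of 0.0874, an adjusted P of 0.417 and an exact permutation P of 0.119. On the slides it was -0.50, 0.14 and -0.37, so the sign was not the same on all 3.

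**Figure D2:**
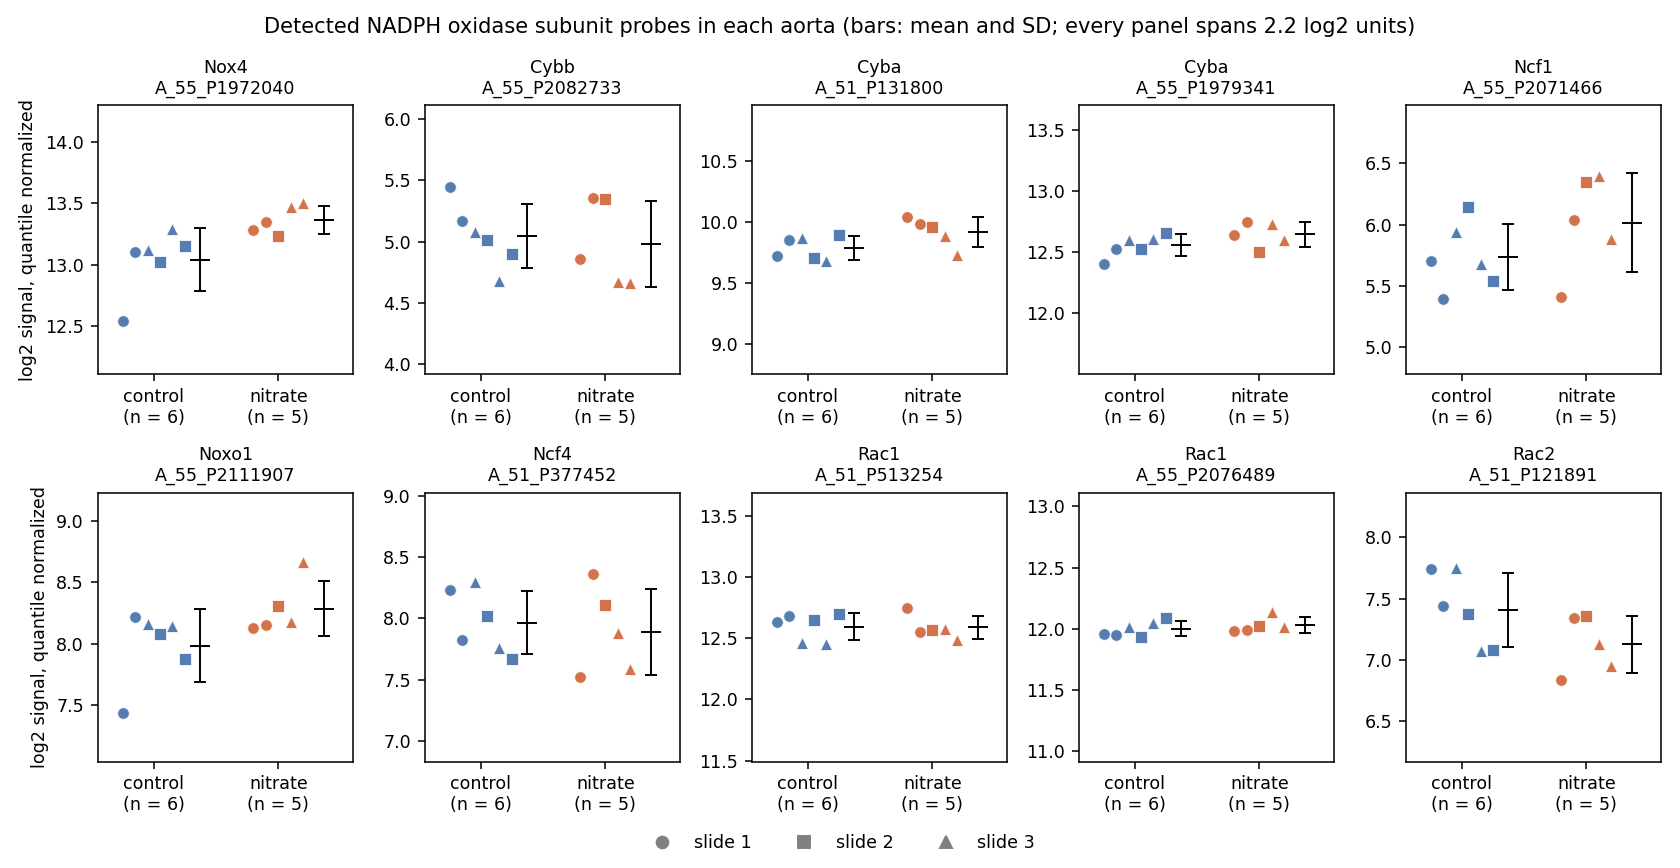
Quantile normalized log2 signal of the 10 detected subunit probes in each aorta, controls (blue, n = 6) on the left and nitrate treated mice (orange, n = 5) on the right of each panel. Marker shapes give the slide, bars the mean and SD. Every panel spans the same height, and in the Nox4 and Noxo1 panels control 1 lies below all other arrays.

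Several subunits belong to phagocytes, so their level in a whole vessel was set against a list of 16 phagocyte markers (among them Ptprc, Cd68, Adgre1, Csf1r and Itgam), all of which were detected. In bulk tissue, fewer cells of a type and less RNA per cell cannot be told apart. The list itself hardly differed between the groups: 0 of 16 genes had an unadjusted limma P under 0.05 (14.4% of the array did), the median difference was 0.04, and the mean over the list differed by 0.03 (exact permutation P = 0.807). Single aortas did differ, from -0.28 in nitrate mouse 1 to 0.33 in nitrate mouse 2, and from -0.24 to 0.33 in controls, with control 1 the highest (list means in log2 units relative to the mean over all arrays).

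Across the 11 arrays, Cybb followed the phagocyte marker mean with Pearson's r = 0.87 (permutation P = 0.0008, adjusted P = 0.008 over 10 relations) and Spearman's rho = 0.78 (permutation P = 0.00629, adjusted P = 0.0314). Ncf4 did so with r = 0.84 (permutation P = 0.0016, adjusted P = 0.008) and rho = 0.86 (permutation P = 0.00128, adjusted P = 0.0128). For Rac2, r was 0.69 (permutation P = 0.0201, adjusted P = 0.0671) and rho was 0.72 (permutation P = 0.0158, adjusted P = 0.0526), which missed the threshold after adjustment. Without nitrate mouse 2 and control 1, the arrays farthest from the median of the marker mean, r was 0.77 for Cybb, 0.74 for Ncf4 and 0.65 for Rac2. Taken within groups r was 0.89, 0.86 and 0.84, and after removing slide means it was 0.89, 0.87 and 0.70. Without control 1 alone, with group means kept, it was 0.83, 0.83 and 0.59. A single slide holds too few arrays for a value of its own.

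The other subunits did not follow the phagocyte markers past the test. Ncf1 gave r = 0.41 and rho = 0.43, with adjusted permutation P values of 0.354 and 0.483, and its r was 0.59 without nitrate mouse 2 and control 1, 0.41 within groups and 0.71 after removing slide means. Nox4 (A_55_P1972040) gave r = -0.43 and rho = -0.29, with adjusted permutation P values of 0.354 and 0.774, and its r was -0.65 within groups, -0.29 after removing slide means and -0.07 without control 1. Noxo1 gave r = -0.42 and rho = 0 (adjusted permutation P = 0.354 and 1), with r = -0.54 within groups, -0.28 after removing slide means and -0.08 without control 1. The probes of Cyba and Rac1 lay between -0.26 and 0.22, with adjusted permutation P values for r of 0.640 or higher, and after removing slide means Rac1 A_51_P513254 gave -0.67. Without control 1 that Rac1 probe gave -0.15 and Cyba A_51_P131800 gave 0.47. The values without control 1 were taken with group means kept, so they are not within-group correlations.

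**Figure D3:**
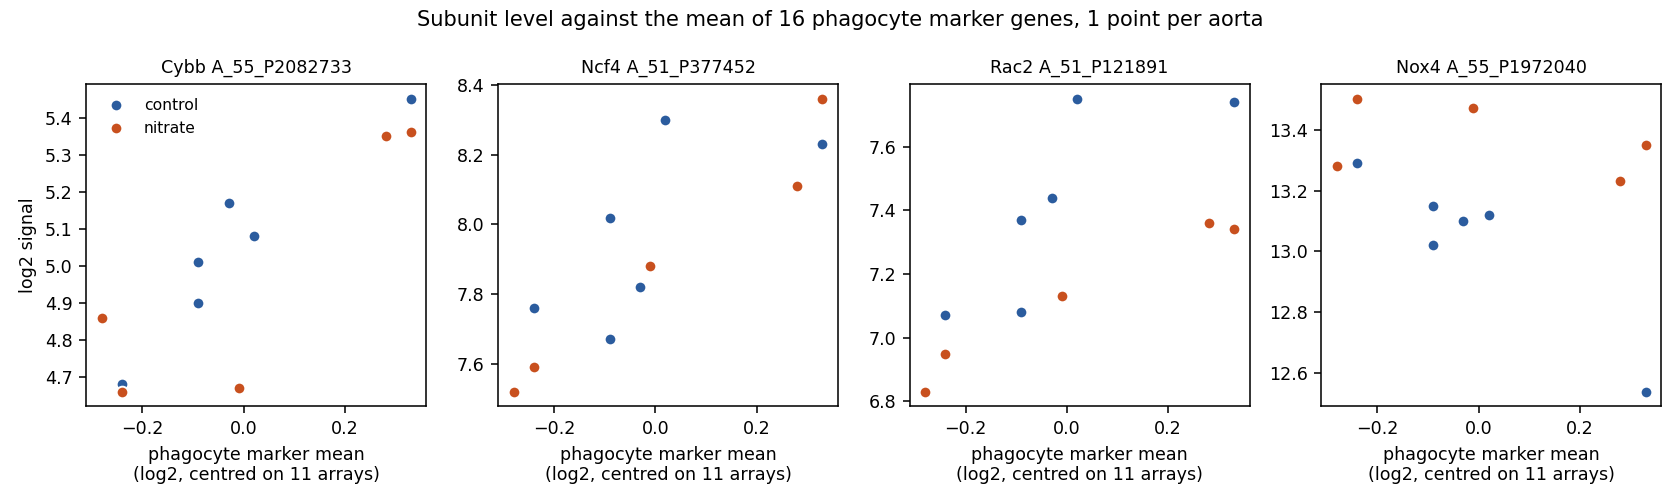
Log2 signal of Cybb, Ncf4, Rac2 and Nox4 (vertical axes) against the mean of 16 phagocyte marker genes (horizontal axes, log2 relative to the mean over 11 arrays), 1 point per aorta, controls in blue and nitrate treated mice in orange. Cybb and Ncf4 rise with the marker mean (r = 0.87 and 0.84), and in the Nox4 panel the lowest point is control 1.

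The subunits were also compared with each other. With group means removed, Ncf4 and Rac2 had r = 0.90 across the 11 arrays, Cybb and Rac2 0.78, and Cybb and Ncf4 0.75. Without control 1 these were 0.90, 0.72 and 0.72. Ncf1 had r = 0.59 with Ncf4 and 0.48 with Rac2 (0.64 and 0.56 without control 1), and 0.12 with Cybb. Nox4 and Noxo1 had r = 0.76, which came to 0.32 without control 1, and Cyba and Nox4 had 0.72, which came to 0.50. Nox4 and Cybb ran opposite to each other with -0.74 with and without control 1. These correlations describe 28 pairs on the same 11 arrays.

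For each detected subunit the transcripts with the most similar pattern were read from all detected probes with a gene symbol, by the correlation of deviations from the group means over 11 arrays. For Cybb these were Cd14 (r = 0.97), which is also in the phagocyte list, Ccl6 (0.93) and Isg20 (0.93). For Ncf4 they were Lgals3bp (0.97), Gda (0.96) and Mov10 (0.96), and for Rac2 Naip2 (0.99), Ifitm6 (0.98) and Steap4 (0.97). The Cybb, Ncf4 and Rac2 neighbours kept r between 0.91 and 0.99 without control 1. For Nox4 they were Rnf20 (0.98), Atp6v0a1 (0.97) and Akap11 (0.97), which came to 0.95, 0.89 and 0.88 without control 1.

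For Noxo1 the nearest transcripts were Rnf10 (0.98), 2700049A03Rik (0.96) and Zfp329 (0.95), for Cyba Gm5461 (0.95), Mphosph10 (0.92) and Fkbp7 (0.92), for Ncf1 Exosc6 (0.90), Zfp456 (0.87) and Usp38 (0.87), and for Rac1 Thsd7a (0.95), Rbl2 (0.94) and Banf1 (0.94). Being the highest among all detected probes over 11 arrays, these values are large by selection and carry no test.

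The promoters of a member that moved with the phagocyte markers and of the member that was called are shown next, as the 250 bases before the annotated gene start (RefSeq, GRCm38.p6). The Cybb window is chrX:9469325-9469574 on the minus strand, and the Nox4 window is chr7:87246399-87246648 on the plus strand. Capitals mark the AP-1 letters TGANTCA, the only one of 4 searched motifs within the windows shown.
Cybb: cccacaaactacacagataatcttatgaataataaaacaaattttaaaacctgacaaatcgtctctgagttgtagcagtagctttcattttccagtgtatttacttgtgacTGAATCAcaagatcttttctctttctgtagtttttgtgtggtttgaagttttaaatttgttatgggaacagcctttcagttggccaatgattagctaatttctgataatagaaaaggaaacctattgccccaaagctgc
Nox4: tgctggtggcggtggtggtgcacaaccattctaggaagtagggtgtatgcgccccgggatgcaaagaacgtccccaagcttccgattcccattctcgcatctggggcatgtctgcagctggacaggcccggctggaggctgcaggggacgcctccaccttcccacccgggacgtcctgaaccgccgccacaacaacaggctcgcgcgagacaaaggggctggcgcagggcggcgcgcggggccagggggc

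The promoter table held 6 of the 9 members, Cyba, Cybb, Ncf1, Nox1, Nox4 and Noxo1, as windows of 300 bases that run 50 bases past the gene start. On both strands, the PU.1 core GAGGAA was in the windows of Cybb (position 10 after the start) and Nox1 (position -23) and in 28.3% of 32851 promoters. The AP-1 letters were in the Cybb window alone among the 6 (position -139) and in 7.81% of all promoters. The E-box CACGTG (7.15% of all promoters) and the CArG box (1.63%) were in 0 of the 6. The base composition differed between members, with 35.3% G and C in the Cybb window, 38.0% in that of Nox1, 68.3% in that of Nox4 and 80.3% in that of Noxo1. These are matches of letters only.

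Genes that work with the oxidase were read from 4 lists, with 1 probe per gene, the brightest detected one, and an unadjusted limma P under 0.05. Over the array 7.71% of probes passed as higher in nitrate treated mice and 6.65% as lower, and the median difference of all detected probes was 0.01. For the subunits the count was 1 higher and 0 lower of 8 detected genes, with a median of 0.04. Of 8 further oxidase genes only Duoxa1, a maturation factor of the dual oxidases, and Cybc1, a chaperone of NOX2 (BC017643 in the files), were detected, with differences of 0.26 (limma P = 0.264, exact permutation P = 0.314) and 0.17 (limma P = 0.142, exact permutation P = 0.139). Noxa1, the activator subunit of the Nox1 enzyme, was outside the detection rule.

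Of 24 regulators of oxidase assembly 19 were detected, and 1 was higher and 0 lower, with a median of 0.07. The gene was Pla2g4a, which encodes cytosolic phospholipase A2, the source of arachidonic acid: its log2 signal was 10.34 to 10.47 with nitrate and 9.71 to 10.40 in controls, a rise of 0.27 (SE 0.11, limma P = 0.0241, adjusted P = 0.292, exact permutation P = 0.0130). In a list of 9 receptors that feed into the oxidases, 2 of 7 detected genes were higher and 0 lower, with a median of 0.12. Tlr2, a receptor for bacterial lipopeptides, lay at 8.07 to 8.52 with nitrate and 7.53 to 7.83 in controls, a rise of 0.49 (SE 0.09, limma P = 0.000166, adjusted P = 0.0940, exact permutation P = 0.00216). Pdgfrb, the PDGF receptor of mural cells, lay at 11.75 to 11.89 with nitrate and 11.20 to 11.65 in controls, a rise of 0.27 (SE 0.08, limma P = 0.00736, adjusted P = 0.219, exact permutation P = 0.00433). The groups did not overlap for Tlr2 and Pdgfrb, nor for Smtn, Adipoq, Retn and Pparg of the marker lists below, against 2.75% of the array. The value 0.00216 is the smallest P that these group sizes allow. Without control 1, the lowest array for Pla2g4a, the rise of Pla2g4a was 0.19 (limma P = 0.0164, exact permutation P = 0.0159). Those of Tlr2 and Pdgfrb were 0.50 and 0.21, and Agtr1b, an angiotensin receptor gene, was then lower (-0.31, limma P = 0.0339, exact permutation P = 0.0635).

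In the list for NADPH supply 9 of 10 genes lay lower with nitrate, and 0 passed as higher and 2 as lower, with a median of -0.31. The 2 that passed, Nadk and Tkt, do not themselves make NADPH. G6pdx, Pgd, Me1, Idh1, Idh2, H6pd and Nnt, whose products do, each had a limma P of 0.0597 (Me1) or higher and did not pass. Nadk, the kinase that makes NADP, fell by 0.34 (SE 0.11, limma P = 0.00854, exact permutation P = 0.0195) on its brighter probe, and its other detected probe gave -0.13 (limma P = 0.244, exact permutation P = 0.251). Tkt, the transketolase of the pentose phosphate pathway, fell by 0.53 (SE 0.21, limma P = 0.0282, exact permutation P = 0.0476). The nitrate values of Tkt lay between 15.02 and 15.30 and the control values between 14.98 and 16.42, with control 1 the highest. The mean over the list differed by -0.32 (exact permutation P = 0.0714), and without control 1 the median difference was -0.19 and Tkt differed by -0.38 (limma P = 0.0469, exact permutation P = 0.0714).

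Markers of fat were lower as well. All 8 adipocyte markers were lower with nitrate and 3 passed the test, Adipoq, Retn and Pparg, with a median of -0.36 (-0.23 without control 1), and the list mean differed by -0.41 (exact permutation P = 0.0130). Adipoq, the adipocyte hormone adiponectin, lay at 14.00 to 14.48 with nitrate and 14.58 to 15.15 in controls. The fall of Adipoq was 0.49, and Pparg fell by 0.57, each with an exact permutation P of 0.00216. Retn fell by 0.84 (exact permutation P = 0.00433). Plin1, with 13.17 and 13.41 as group means, did not pass (limma P = 0.109, exact permutation P = 0.141). The list mean ran from -0.54 to 0.03 in nitrate treated mice and from -0.13 to 0.55 in controls (log2 units relative to the mean over all arrays). The part of fat in the values of the NADPH genes was not tested.

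Among the other cell types, 2 of 8 smooth muscle markers were higher and 0 lower, Smtn by 0.26 (exact permutation P = 0.00433) and Lmod1 by 0.31 (exact permutation P = 0.0325). With all arrays the other detected Smtn probe gave 0.14 (exact permutation P = 0.305). Without control 1 Smtn differed by 0.15 (exact permutation P = 0.00794), Lmod1 by 0.23 (exact permutation P = 0.0714) and Myocd by -0.34 (exact permutation P = 0.0635), all 3 past the limma threshold. Acta2 and Myh11 differed by 0.03 and 0.15 (exact permutation P = 0.641 and 0.327). Of 7 endothelial markers 3 had a higher and 4 a lower mean, with a median of -0.09. Vwf rose by 0.22 (exact permutation P = 0.0238), and Pecam1 and Cdh5, at 0.18 and -0.20, did not pass (exact permutation P = 0.208 and 0.0649). All 5 fibroblast markers had a higher mean with nitrate, and the list mean differed by 0.14 (exact permutation P = 0.0498). Of these Lum rose by 0.23 (exact permutation P = 0.0433), a call that was lost without control 1 (0.19). Of 3 detected neutrophil markers S100a9 fell by 0.88, past the limma threshold but not in the exact permutation test (P = 0.0606). It had 10.12 in control 1 and at most 8.46 elsewhere, and fell by 0.52 without control 1. The other 2, S100a8 at -0.70 and Elane at 0.04, did not pass (exact permutation P = 0.0693 and 0.574), and Mpo was outside the detection rule. Of 3 detected T and B cell markers Cd79b fell by 0.81 (exact permutation P = 0.0195), Cd3e and Cd4 differed by 0.01 and 0.08 without passing, and the median was 0.01. None of 5 heart muscle markers passed with all arrays. Without control 1 Myh6 and Tnnt2 passed the limma threshold as higher (exact permutation P = 0.0794 and 0.0238), and 12% of the array passed in that fit. The mean of the heart muscle markers ran from -1.97 to 3.55 (log2 units relative to the mean over all arrays), with nitrate mouse 4 and control 1 on top. The part of these cell types in the values of Nox4 and Rac2 was not tested.

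**Figure D4:**
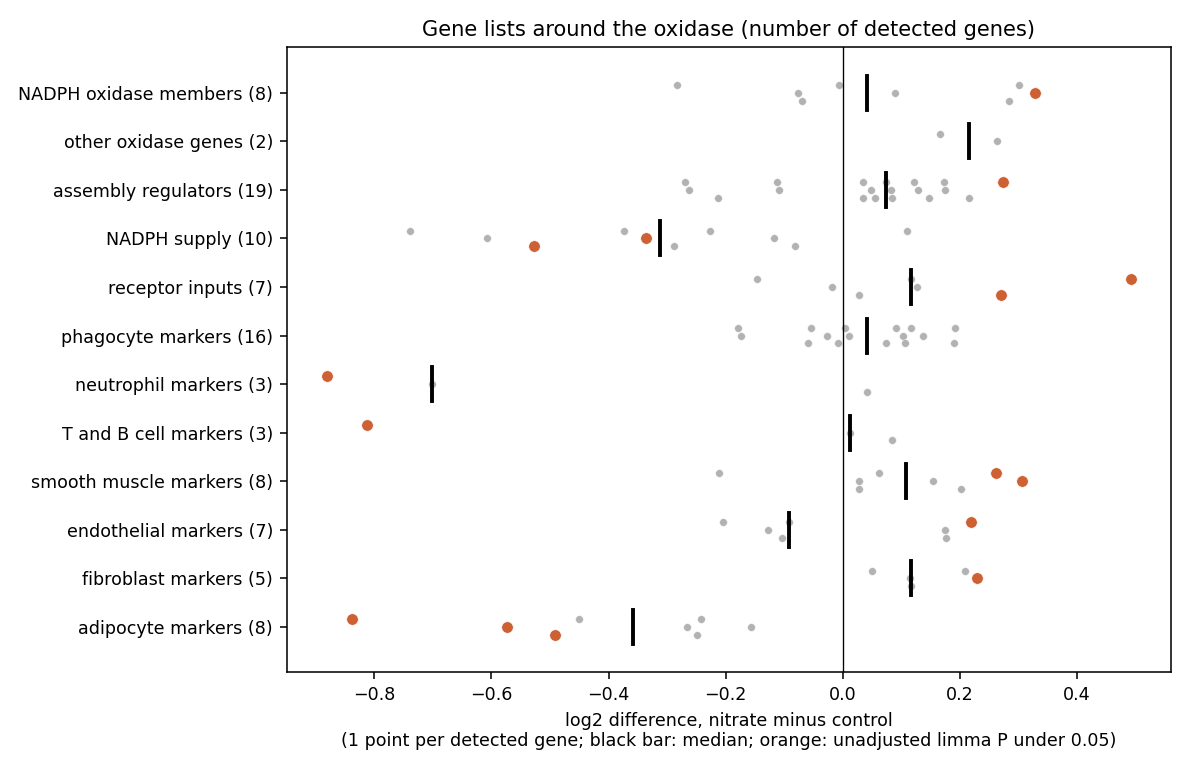
Log2 difference, nitrate minus control, of each detected gene of the subunit, partner and cell type marker lists, 1 point per gene, with the median as a black bar and genes with an unadjusted limma P under 0.05 in orange. The NADPH supply and adipocyte genes lie to the left (medians -0.31 and -0.36), and the subunits lie on both sides of 0 (median 0.04). Heart muscle markers are left out.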

How the data were processed

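The authors deposited Feature Extraction 10.7.1.1 output, with background-subtracted intensities and quality flags for 11 one-color Agilent arrays (mm9 probe positions), and a table of log2 values, quantile normalized and centred on the median of all arrays. From the intensities, values were raised to at least 1, put on the log2 scale without control and outlier-flagged spots, averaged over the spots of a probe and quantile normalized. R 4.3.3 and limma 3.58.1 (lmFit, eBayes) were run over all detected probes, with Benjamini-Hochberg adjustment, and probes outside detection came from a fit over all probes. Exact permutation tests were two-sided over 462 divisions, with a smallest P of 0.00216. Correlations used 100000 permutations.

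The members and lists were chosen with earlier results of these data known. Named were all members, list genes with an unadjusted P under 0.05, a few markers of each cell type and the 3 nearest transcripts of each detected member. Duoxa1, Cybc1, Noxa1, Cd3e, Cd4, Mpo, S100a8 and Elane are not covered by this rule and were added with their values known. The same holds for G6pdx, Pgd, Me1, Idh1, Idh2, H6pd and Nnt, and for the genes called without control 1 alone (Agtr1b, Myocd, Myh6 and Tnnt2). Detection without the spot-found flag, exact permutation tests, list values and subunit correlations without control 1 and correlations within slides were chosen after seeing the data. Other alternatives covered scaling, background correction, an offset of 16, the deposited table, detection rules, flagged spots, the prior, slide and replicate blocks and each array left out. The number of arrays limits the precision.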

Additional observations from a re-analysis of the deposited data

Results flagged for a closer look

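In a group of 5 or 6 arrays, the gap of the extreme array to its neighbour was set against the range of the group. Control 1 was far below the other controls for Nox4 A_55_P1972040 (0.636 of the range), Pdgfrb (0.689) and Smtn (0.946). Control 3 was far below the others for Itgam (0.808) and far above them for Adipoq (0.628). Among nitrate treated mice, mouse 4 was high for Rac1 A_55_P2076489 (0.757), mouse 2 was high for Pdgfrb (0.714) and mouse 1 was low for Cd79b (0.881). Of 38 sets of values tested in each group, 3 were picked out in the nitrate group and 5 in the control group, and chance gives about 1.9 in each. All sets share the same arrays, and control 1 was the array picked for Nox4, Pdgfrb and Smtn. The sets are therefore not independent, and the counts carry no test.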

How the results depend on the processing

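The Nox4 probe A_55_P1972040 kept a higher mean in nitrate treated mice and an unadjusted limma P under 0.05 in every alternative run, with differences from 0.23 to 0.38. The number of called subunit probes was 1 with all arrays and ran from 0 (without control 1, where the fold of Nox4 is under the limit) to 2 (without nitrate 1, control 2, control 5 or control 6) when arrays were left out, while 6.75% (without control 1) to 10.3% (without control 6) of all detected probes were called. The number of called genes in the other lists was 14 of 93 (15.1%, against 14.4% of the array) and ran from 9 (without nitrate 2) to 22 (without control 6), where 9.85% and 14.8% of the array passed.

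Same-numbered arrays did not pair: the correlation of their deviations ran from -0.14 to 0.18 over the 5 numbers, and 1 of 5 nitrate arrays was most like its own number. With the replicate block 2 subunit probes were called, Nox4 at 0.35 and Rac2 at -0.35. Control 6 has no partner and adds nothing to that fit, and leaving out control 6 alone gave the same differences and also 2 called probes.

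Differences near 0 changed sign. Rac1 A_51_P513254 gave 0.00279 with slide as a block and 0.0142 with the replicate block. When arrays were left out in turn, it ran from -0.0472 to 0.0177, Rac1 A_55_P2076489 from -0.000218 to 0.0462, Ncf4 from -0.193 to 0.0167 and Cybb from -0.164 to 0.0116. Some subunits reached an unadjusted limma P under 0.05 in single alternatives: Noxo1 with normexp background correction (0.26) and without control 2 (0.35), Ncf1 without nitrate 1 (0.44), Cyba A_51_P131800 without nitrate 5 (0.18), and Rac2 without control 5 or control 6 (-0.35 in both). Ncf1 also moved the other way, to 0.19 without nitrate 4 and 0.20 without nitrate 3. The number of subunit probes that followed the phagocyte marker mean, 2 with all arrays, was 2 or 3 in the alternatives run. The cause of these shifts was not tested.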
